A study of Mus musculus with 2 samples.

Results

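Matricellular proteins are secreted into the extracellular matrix, where they act on cells and on matrix assembly rather than as structural fibres. The 10 genes described here are Spp1 (osteopontin), Thbs1, Thbs2, Thbs3 and Thbs4 (thrombospondins), Postn (periostin), Tnc (tenascin C), Sparc, Sparcl1 (SPARC-like 1, also called hevin) and Cilp (cartilage intermediate layer protein). They were taken by name from the 20140 genes of the tables, and the choice was made partly because Spp1, Thbs4 and Postn stood higher in fibroblasts of the ligated library. Values in those fibroblasts are therefore given as a description. All 10 were listed above 0 in both libraries.

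The study compared submandibular salivary glands of female C57BL6/J mice, 14 weeks old, in which a metal clip had closed the main ducts for 14 days (ligated) with glands 14 days after an operation that located the ducts and left them open (mock). Each condition is 1 droplet library pooled from 2 submandibular and sublingual glands, depleted with beads of EpCAM-bearing epithelial cells and Ter119-bearing red blood cells and then of dead cells. There is no replicate spread, so no difference below carries a test, and each describes these 2 libraries only. Values are mean UMIs of a gene per 10000 UMIs of a cell, averaged over the cells of a cluster, where a UMI marks 1 captured RNA molecule.

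The tables held 12 clusters of all cells and 5 clusters of a subset whose name refers to Pdgfr and Gli1. Cell numbers recovered from the means came to 11406 ligated and 4199 mock cells, of which 1935 and 401 were in the subset. Median UMI totals of the cells for which a total could be recovered ran from 982.5 to 14253.5 over clusters and libraries, a sample that favours deep cells. Clusters were called "X-like" from markers: cluster 0 endothelial-like, 1 natural killer-like, 2 T cell-like, 3 fibroblast-like (10 of 10 markers detected), 4 a second endothelial-like, 5 macrophage-like, 6 mural-like (pericytes and vascular smooth muscle, 10 of 10), 7 ductal-like and 9 Schwann-like. Cluster 8, led by acinar genes, cluster 10, led by haemoglobin genes, and cluster 11, led by cell cycle genes with S100a8 and S100a9, stayed unnamed or mixed. In the subset, cluster 0 was fibroblast-like, 2 mural-like, 3 endothelial-like and 4 a second fibroblast-like cluster, and cluster 1, led by lymphocyte genes, stayed unnamed. Differences were compared only in the 9 clusters of all cells and 3 of the subset where both libraries had 50 or more cells. Clusters 8, 9 and 11 and subset clusters 1 and 4 fell short of this.

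As background, osteopontin is a phosphorylated glycoprotein that binds integrins and CD44 and is induced in many injured tissues, both in stromal cells and in macrophages. Thrombospondins bind calcium, integrins and other matrix proteins. Thrombospondin 1 and thrombospondin 2 form trimers and inhibit angiogenesis, whereas thrombospondin 3 and thrombospondin 4 form pentamers, and thrombospondin 4 is abundant in tendon. Periostin and tenascin C are laid down in wounds and fibrosis, SPARC and SPARC-like 1 bind calcium and take part in collagen assembly, and CILP is a matrix protein first found in cartilage that antagonises growth factor signalling.

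The genes lie on 8 chromosomes in the GENCODE M21 annotation of GRCm38, the build (mm10) that the submitters' processing notes name. Spp1 spans chr5:104435118-104441050 on the plus strand and Sparcl1 chr5:104079111-104113733 on the minus strand, 321385 bases apart. Both belong to a chromosomal cluster of secreted phosphoprotein genes, and of the 4 protein-coding genes between them 3 (Dspp, Ibsp and Mepe) were not rows of the tables and Dmp1 reached at most 0.0715 in any cluster and library. Thbs4 lies at chr13:92751590-92794818 (minus), Postn at chr3:54361109-54391037 (plus) and Cilp at chr9:65265180-65280605 (plus). Thbs1 is at chr2:118111876-118127133 (plus), Thbs2 at chr17:14665500-14694235 (minus) and Thbs3 at chr3:89215180-89226837 (plus). Tnc is at chr4:63959785-64047015 (minus) and Sparc at chr11:55394500-55423183 (minus). Exons of Spp1 overlap Gm42793 on the same strand, and exons of Thbs1, Thbs3 and Tnc overlap Gm29233, Mtx1 and 8030451A03Rik on the opposite strand. Whether reads were counted by strand is not given in the sources used here, so values of Thbs1, Thbs3 and Tnc are uncertain to that extent. Counting by strand would not separate Spp1 from Gm42793, so Spp1 is uncertain either way. Gm42793 and Gm29233 were not listed among the genes. In cluster 3, 8030451A03Rik was listed at 0 in both libraries, and Mtx1 stood at 0.266 ligated and 0.181 mock.

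Spp1, Thbs4, Postn and Cilp were the 4 genes past the size rule (defined below) in the fibroblast-like cluster, so the 250 bases before their RefSeq start sites (GRCm38.p6) are shown, 5′ to 3′ on the strand of the gene. Capitals mark matches to any of 4 motifs searched on both strands. These were TGANTCA for the factor AP-1 and CAGAC for SMAD proteins, the transducers of TGF-beta signalling. The others were GGAATG for TEAD factors and the TATA box as TATAAA.
Spp1, chr5:104434861-104435110, plus strand: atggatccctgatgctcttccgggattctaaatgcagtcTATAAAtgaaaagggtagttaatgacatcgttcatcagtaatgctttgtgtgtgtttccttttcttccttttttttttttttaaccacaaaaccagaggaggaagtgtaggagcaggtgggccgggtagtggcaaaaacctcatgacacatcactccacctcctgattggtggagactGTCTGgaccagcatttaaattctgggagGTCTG
Thbs4, chr13:92794819-92795068, minus strand: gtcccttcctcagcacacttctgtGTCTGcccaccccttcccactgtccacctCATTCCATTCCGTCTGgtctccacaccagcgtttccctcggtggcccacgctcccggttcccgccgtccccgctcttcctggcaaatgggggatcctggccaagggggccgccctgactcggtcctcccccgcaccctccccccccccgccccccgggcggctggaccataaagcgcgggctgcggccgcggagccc
Postn, chr3:54360857-54361106, plus strand: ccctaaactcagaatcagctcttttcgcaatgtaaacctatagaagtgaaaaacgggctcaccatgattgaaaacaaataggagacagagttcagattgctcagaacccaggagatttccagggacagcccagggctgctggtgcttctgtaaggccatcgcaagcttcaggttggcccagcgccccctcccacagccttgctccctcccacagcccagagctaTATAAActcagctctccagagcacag
Cilp, chr9:65264930-65265179, plus strand: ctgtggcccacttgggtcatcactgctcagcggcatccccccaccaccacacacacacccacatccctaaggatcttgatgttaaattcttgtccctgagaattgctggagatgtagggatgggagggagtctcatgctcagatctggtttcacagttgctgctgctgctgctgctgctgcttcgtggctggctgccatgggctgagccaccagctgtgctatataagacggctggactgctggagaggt

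The Spp1 window held 2 matches to CAGAC and 1 to TATAAA, which begins 211 bases before the start. The Thbs4 window held 2 matches to CAGAC and 2 overlapping ones to GGAATG. The Postn window held 1 match to TATAAA, which begins 26 bases before the start. The Cilp window held none of the 4 motifs as spelled, although it reads tatataag near its end, which the spelling TATAAA does not match. No window of these 4 genes held TGANTCA. Among all 32851 RefSeq windows of this length, 42.2% held CAGAC, 12.6% held GGAATG, 12.4% held TATAAA and 6.75% held TGANTCA. GC content was 43.6% for Spp1, 70.8% for Thbs4, 52% for Postn and 56% for Cilp, beside a median of 52.4% over all windows. No motif was thus common to these 4 windows.

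Across clusters, the members fell into 3 kinds of pattern. Spp1, Thbs1, Thbs2, Thbs3, Thbs4 and Cilp were highest in fibroblast-like cluster 3, Postn and Tnc in Schwann-like cluster 9 with fibroblast-like and mural-like cells next, and Sparc and Sparcl1 were spread over stromal and endothelial clusters. With both libraries together, Spp1 stood at 24.9 in cluster 3, followed by 4.57 in cluster 8 and 0.681 in macrophage-like cluster 5. Cilp followed the same order at its top, with 17.6 in cluster 3 and 3.75 in cluster 8, and Thbs4 stood at 8.48 and 1.06 there. Cluster 8 also held fibroblast markers, 9 of 10 detected with both libraries together. In the ligated library the 10 markers summed to 19.7% of their level in cluster 3, beside 17.4% for Spp1, 20.6% for Cilp and 11.8% for Thbs4. The part that fibroblast RNA plays in these values of cluster 8 was not tested.

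**Figure D1:**
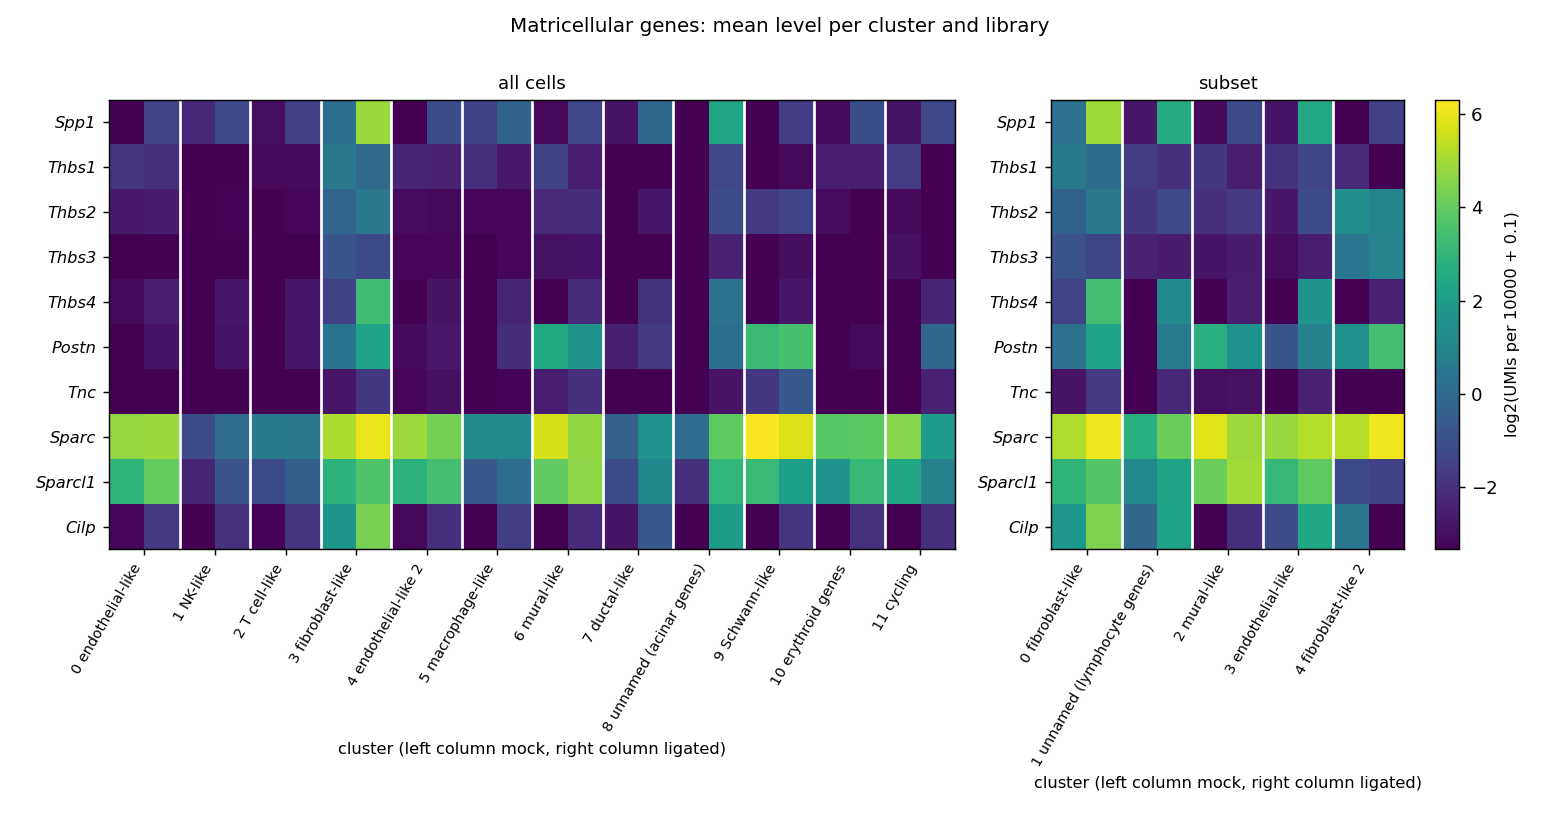
Mean level of the 10 genes (rows) in each cluster (columns), as log2(UMIs per 10000 + 0.1), with the mock library on the left and the ligated library on the right of each pair. The left panel shows the 12 clusters of all cells and the right panel the 5 clusters of the subset. Spp1, Thbs4 and Cilp are brightest in the ligated column of cluster 3 and of subset cluster 0, with subset clusters 1 and 3 and cluster 8 next, whereas Sparc is bright in all stromal and endothelial clusters.

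The other thrombospondins were low outside fibroblasts. Thbs1, an inhibitor of angiogenesis, stood at 0.956 in cluster 3, 0.287 in cluster 8, 0.157 in endothelial-like cluster 0 and 0.128 in mural-like cluster 6. Thbs2, its close relative, stood at 1.24, 0.341, 0.0639 and 0.135 in the same clusters, and at 0.279 in Schwann-like cluster 9. Thbs3 stood at 0.365 in cluster 3 and at 0.0812 or less elsewhere. For these 3 genes the values of both libraries in cluster 3 lay above those in the next cluster. For Spp1, Thbs4 and Cilp they overlapped, because the mock level in cluster 3 was below the ligated level in cluster 8.

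Postn stood at 10.97 in Schwann-like cluster 9 (11.07 ligated, 9.25 mock), 4.21 in cluster 3 (fibroblast-like) and 3.80 in cluster 6 (mural-like). The values of the latter pair overlapped between libraries. Tnc was low everywhere, at 0.504 in cluster 9, 0.177 in cluster 3 and 0.126 in cluster 6. Clusters 9 and 3 overlapped between libraries, as did 3 and 6, but 9 and 6 did not. The mock library had only 17 cells in cluster 9.

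Sparc stood at 60.5 in fibroblast-like, 56.65 in Schwann-like, 32.7 in mural-like, 27.7 in endothelial-like cluster 0 and 22.3 in the second endothelial-like cluster. Fibroblast-like and Schwann-like values overlapped between libraries. Lymphocyte-like clusters 1 and 2 had the lowest Sparc, 0.889 and 1.33. Sparcl1 led in mural-like cells at 22.0, followed by 12.5 in endothelial-like cluster 0, 11.6 in fibroblast-like and 9.76 in the second endothelial-like cluster, and each neighbour in this order overlapped with the next.

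The contrast between libraries was read with a size rule: a gene is past it where the higher of both values is at least 0.5 and log2((ligated + 0.1)/(mock + 0.1)) is at least 1 in size. This difference understates the change of low genes. In fibroblast-like cluster 3, with 1149 ligated and 188 mock cells, Spp1 stood at 28.75 ligated and 1.08 mock, a 26.65-fold ratio and a difference of 4.61. Thbs4 stood at 9.83 and 0.261, a 37.65-fold ratio (difference 4.78). These were the fourth and second largest of the 3686 genes considered there. Cilp stood at 19.96 and 3.32 (6.003-fold, 2.55), and Postn at 4.70 and 1.23 (3.81-fold, 1.85). At the median recovered depth the mock values correspond to roughly 260 UMIs of Spp1, 62.9 of Thbs4, 801 of Cilp and 297 of Postn over the cluster, so none of them rests on a handful of molecules. That conversion tends to be too high because deep cells are favoured.

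**Figure D2:**
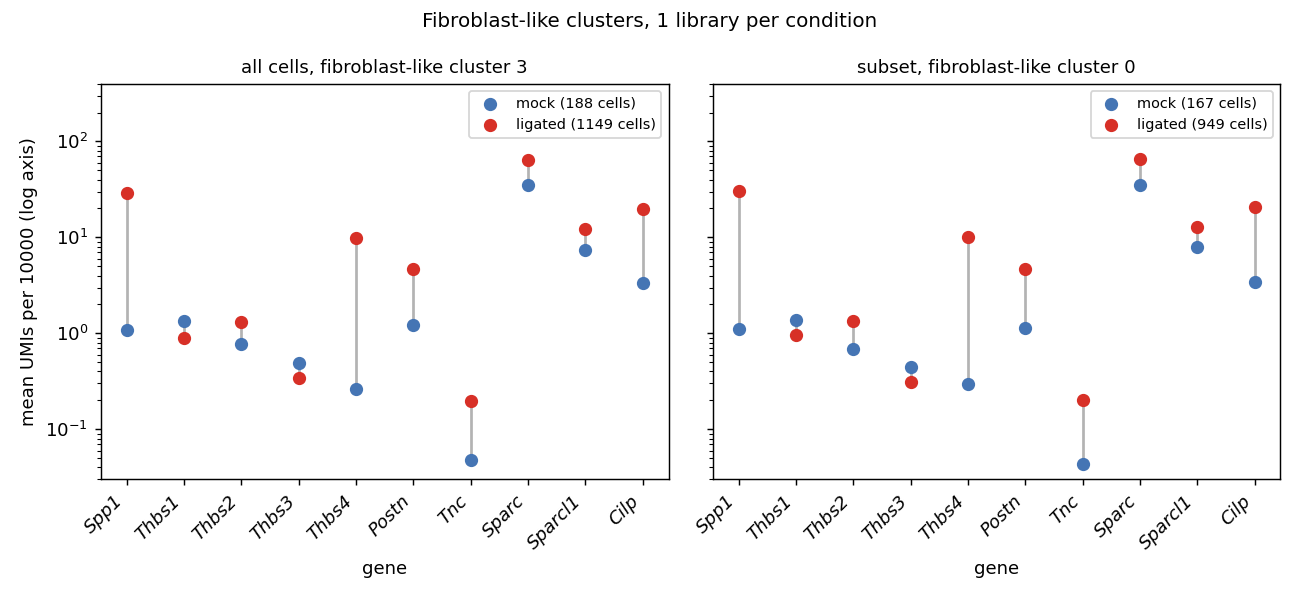
Level of each gene in the fibroblast-like cluster of all cells (left) and of the subset (right), in mean UMIs per 10000 on a log axis. Each point is 1 library, blue for mock and red for ligated, and the grey line joins them. Spp1, Thbs4, Cilp and Postn lie apart by 3.81-fold or more in the left panel, as does Tnc at levels below 0.5, while Thbs1 and Thbs3 are lower in the ligated library.

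The other 6 members did not pass the rule in cluster 3. Sparc stood at 64.7 ligated and 35.0 mock (0.88), Sparcl1 at 12.3 and 7.36 (0.74) and Thbs2 at 1.32 and 0.777 (0.70). Thbs1 was on the other side, at 0.893 and 1.35 (-0.54), and so was Thbs3, at 0.346 and 0.486 (-0.39). Tnc stood at 0.198 and 0.0482 (1.01) but stayed below the minimum level, and its mock value corresponds to roughly 11.6 UMIs. Within the thrombospondins, the sign thus differed between Thbs2 and Thbs4 on one side and Thbs1 and Thbs3 on the other.

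Of the 8 members that reached the minimum level in cluster 3, 4 were past the rule and all 4 were higher in the ligated library. Over all genes at that level and listed in both libraries, 7.92% were past the rule in either direction and 3.26% were past it and higher. Shares over all genes given below count either direction unless stated otherwise. The member list was chosen partly on this contrast, so nothing is read from its count. Fibroblast markers themselves summed to 350.1 (ligated) and 537.6 (mock) in cluster 3. Of the 10 markers, Dpt, Pi16 and Gsn were past the rule and lower, and 3 of 10 were higher in the ligated library, all of them collagen chains. Macrophage markers summed to 2.28 and 0.273 there, with all 10 higher in the ligated library. Whether a changed mix of fibroblast states within the cluster takes part in the differences was not tested.

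Fibroblast-like cluster 0 of the subset, with 949 and 167 cells that largely overlap with those of cluster 3, gave nearly the same values and is no independent measurement. Spp1 stood at 30.6 and 1.10 (4.68), Thbs4 at 10.1 and 0.294 (4.70), Cilp at 20.9 and 3.41 (2.58) and Postn at 4.72 and 1.125 (1.98). Here too 4 of 8 members were past the rule, all higher, beside 8.04% of genes in either direction and 3.41% higher.

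In the 8 other compared clusters of all cells, Spp1, Cilp and Thbs4 stood at 0.847 or less in the ligated library and no higher in the mock library. A droplet library carries free RNA from broken cells, so levels were set beside markers of foreign cell types, as a percentage of the library mean. Cycling markers and those of a cluster's own and related types were left out. Related types were natural killer and T cell for both lymphocyte-like clusters, and dendritic for the macrophage-like cluster. They were lymphatic for the second endothelial-like cluster, and acinar and myoepithelial for the ductal-like cluster. In the subset, fibroblast markers were left out for mural-like and endothelial-like clusters, and mural markers for the latter. In endothelial-like cluster 0 of the ligated library Spp1 stood at 0.295, which is 8.89% of the library mean, and Cilp at 9.38%, beside a median of 9.55% for 65 such markers. In natural killer-like cluster 1 Spp1 stood at 10.2% beside 7.93%, in T cell-like cluster 2 at 7.67% beside 9.16%, and in the second endothelial-like cluster at 11.4% beside 11.8%. Over these 4 clusters Spp1 thus lay on both sides of the marker median. Cilp and Thbs4 lay below it in each of them, Thbs4 at 7.11%, 5.14%, 4.76% and 3.85%. The part of free RNA in these values was not tested.

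Macrophages are a known source of osteopontin, but in macrophage-like cluster 5 of the ligated library Spp1 stood at 0.728, or 21.9% of the library mean, beside 20.5% for 66 markers of other cell types. In the mock library the same cluster stood at 0.262, which was 334% of the low mock library mean beside 10.8% for the markers, and corresponds to roughly 21.01 UMIs in 77 cells. The deposited difference of 1.19 was past the rule, but it became -1.25 after the marker share of the library mean had been subtracted from both values. No direction is therefore given for Spp1 in macrophage-like cells. In natural killer-like cells of the mock library Spp1 stood at 0.117, 149% of the library mean beside 2.28%, and this cluster held 24.1% of all mock Spp1.

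**Figure D3:**
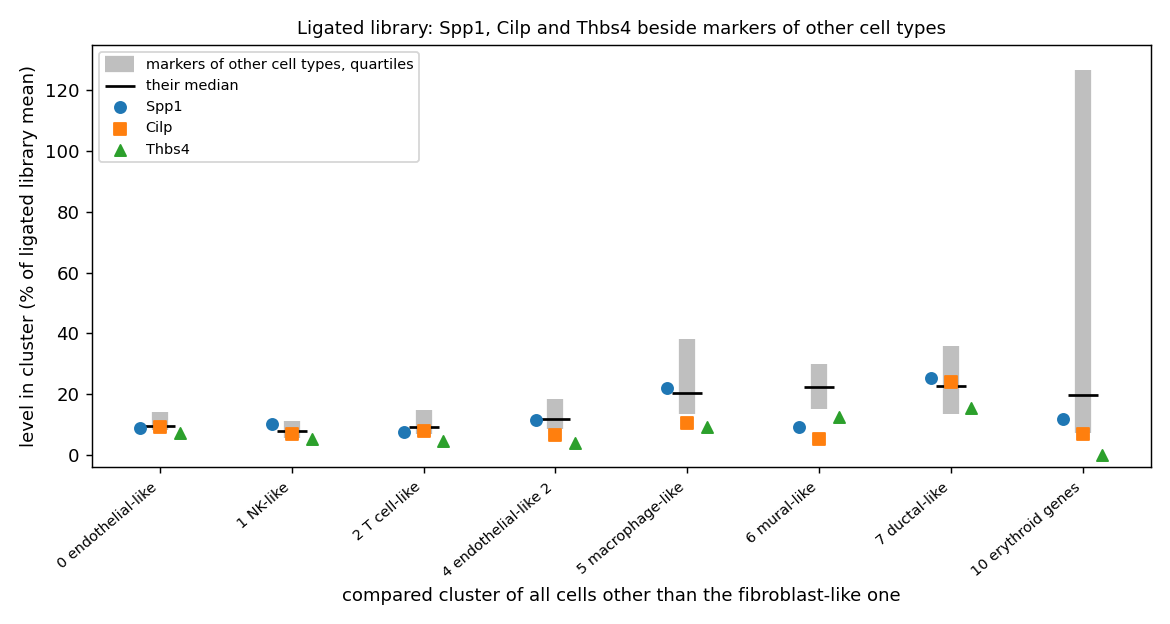
Level of Spp1 (circles), Cilp (squares) and Thbs4 (triangles) in compared clusters other than the fibroblast-like one, as a percentage of the ligated library mean. Black lines are the median and grey bars the quartiles of markers of other cell types. Spp1 lies between 7.67% and 25.5% and lies inside the marker quartiles in all but mural-like cluster 6, where it is below them. Thbs4 lies below the quartiles in all but ductal-like cluster 7, and Cilp lies below them in clusters 4, 5, 6 and 10.

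In ductal-like cluster 7, where cells were shallow (median recovered totals 982.5 and 1076.5 UMIs), Spp1 stood at 0.847 and 0.0422, Cilp at 0.546 and 0.0460, Sparc at 2.88 and 0.681 and Sparcl1 at 2.03 and 0.356. All 4 members at the minimum level were past the rule and higher there, beside 24.9% of all genes. After subtraction the difference was 0.49 for Spp1, -0.06 for Cilp and 0 for Sparc, and both Sparcl1 values were below 0.5. The mock values of Spp1 and Cilp correspond to roughly 0.913 and 0.995 UMIs. The part of free RNA in these 4 differences was not tested beyond this subtraction.

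The ratio of Spp1 to Cilp was 1.44 in ligated fibroblasts and 0.32 in mock fibroblasts. In the ligated library it was 1.38 in endothelial-like cluster 0, 1.40 in T cell-like cluster 2, 1.55 in ductal-like cluster 7 and 1.29 in Schwann-like cluster 9, close to that of the fibroblasts. It was 2.15 in natural killer-like, 2.48 in the second endothelial-like, 2.56 in mural-like and 3.07 in macrophage-like cells. The Spp1 levels behind the latter 4 ratios ranged from 0.312 to 0.728. In clusters 8, 10 and 11 the ratio was 1.22, 2.54 and 2.07. The ratio of Spp1 to Thbs4 was 2.925 in ligated fibroblasts, and 3.85, 4.96, 5.02 and 4.30 in clusters 0, 2, 7 and 9. It was 6.12, 9.15, 2.33 and 7.43 in clusters 1, 4, 6 and 5, and 4.31 and 3.17 in clusters 8 and 11. The part of fibroblast RNA in these ratios was not tested.

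Mural-like cells differed from fibroblasts in the direction of a pair of members. In mural-like cluster 6, with 420 ligated and 161 mock cells, Postn stood at 3.06 ligated and 5.72 mock (difference -0.88), and Sparc at 25.8 and 50.8 (-0.98). Both were higher in the ligated library in fibroblasts. Sparcl1 was higher in the ligated library in both cell types, at 24.6 and 15.2 in mural-like cells (0.69). None of the 3 members at the minimum level passed the rule in cluster 6, beside 7.39% of all genes, and Sparc lay just outside it. After subtraction Sparc was past the rule at -1.17 and Postn stood at -0.97.

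Mural-like cluster 2 of the subset, with 274 and 128 cells, gave the same directions. Postn stood at 2.92 and 6.47 and was past the rule (-1.12, but -0.93 and no longer past it with a pseudocount of 1), Sparc stood at 29.95 and 56.6 (-0.92) and Sparcl1 at 30.8 and 17.0 (0.85). This was 1 of 3 members, beside 6.36% of genes. The 10 mural markers themselves summed to 135.3 (ligated) and 211.9 (mock) in cluster 6, and 0 of 10 were higher in the ligated library, so the lower Postn and Sparc moved with lower mural markers. Their part in the result was not tested.

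**Figure D4:**
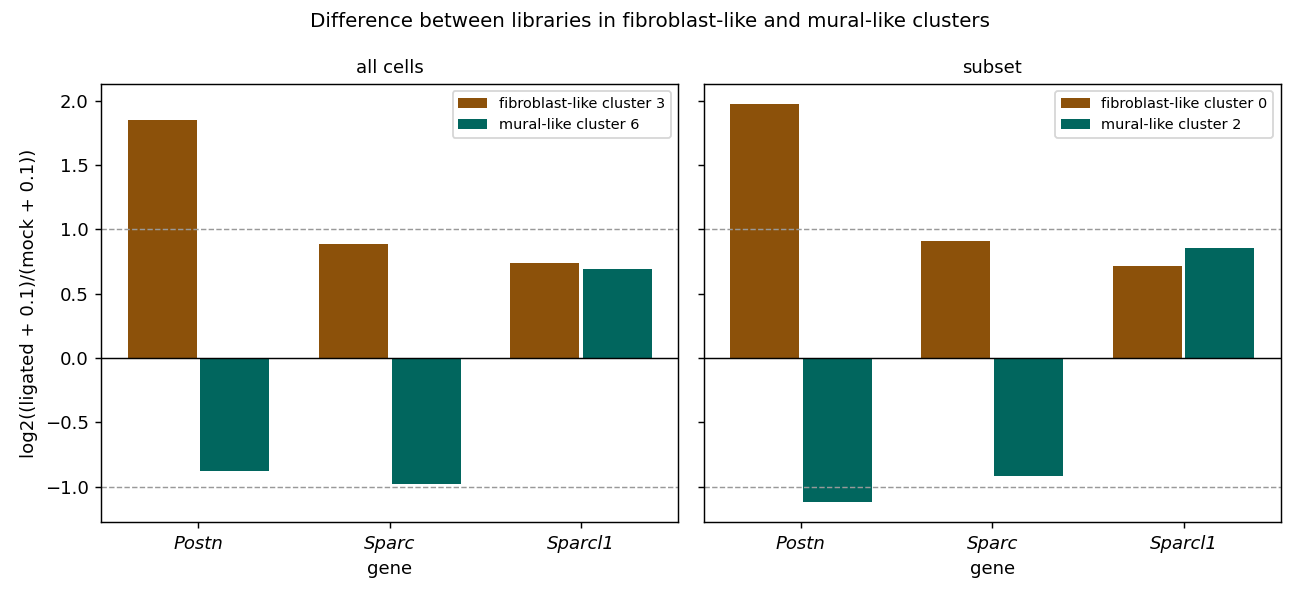
Difference between the libraries, log2((ligated + 0.1)/(mock + 0.1)), of Postn, Sparc and Sparcl1 in fibroblast-like (brown) and mural-like (green) clusters of all cells and of the subset. Each bar is 1 library against 1 library, and dashed lines mark a size of 1. Postn and Sparc point up in fibroblasts and down in mural-like cells, and Sparcl1 points up in both.

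Endothelial-like cluster 0, with 2948 and 2363 cells, held the largest part of Sparcl1, 56.0% of the ligated and 74.7% of the mock sum. Sparcl1 stood there at 16.3 ligated and 7.77 mock, a 2.10-fold ratio just inside the rule (1.06, and 1.05 after subtraction, but 0.98 and no longer past it with a pseudocount of 1). Sparc stood at 28.6 and 26.5 (0.11). This was 1 of 2 members at the minimum level, beside 4.26% of genes. In the second endothelial-like cluster Sparcl1 stood at 10.9 and 7.10 (0.61) and Sparc at 19.3 and 29.4 (-0.60), and neither passed the rule, beside 3.97% of genes.

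Sparcl1 was higher in the ligated library in all 9 compared clusters of all cells. After subtraction it was lower in T cell-like cells (-1.09, with 0 ligated and 0.113 mock left) and at 0 in natural killer-like and macrophage-like cells. In cluster 10, led by haemoglobin genes, it stood at 8.62 and 2.99 (1.498), 1 of 2 members beside 23.6% of genes, with 60 and 85 cells and endothelial markers detected. In natural killer-like cells Sparc stood at 0.996 and 0.360 (1.25), which was 1 of 1 member beside 2.12% of genes, and subtraction left nothing of either value. In T cell-like cells 0 of 2 members passed, beside 3.01% of genes, and in macrophage-like cells 1 of 3, Spp1, beside 6.51%.

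Over the 9 compared clusters, 27 of 90 member and cluster pairs reached the minimum level. Of these, 12 were past the rule, all higher in the ligated library, beside 9.06% of gene and cluster pairs in either direction. After subtraction 8 were past it, 6 higher and 2 lower. The share over all genes was not recomputed after subtraction. The 4 fibroblast differences, Sparcl1 in cluster 0 and Sparcl1 in cluster 10 were the 6 higher ones, and Sparc in mural-like and T cell-like cells the 2 lower ones. In T cell-like cells Sparc stood at 1.33 ligated and 1.37 mock (-0.04) as deposited. Subtraction left 0 and 0.535 of these, so no direction is given for Sparc there. In the subset 17 of 30 pairs reached the level, and 9 were past the rule (8 higher, 1 lower), beside 7.61%, with the same number after subtraction. In endothelial-like cluster 3 of the subset, which had 4 of these calls, the subtracted share was 8.67% of the ligated library mean. Fibroblast and mural markers did not enter that share, so subtraction cannot decide the part of fibroblast RNA there.

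Endothelial-like cluster 3 of the subset, with 260 and 82 cells, had high ligated levels of the fibroblast members. Spp1 stood at 5.52 and 0.0465 (5.26), Cilp at 5.19 and 0.375 (3.48) and Postn at 1.78 and 0.498 (1.65, or 0.89 and no longer past the rule with a pseudocount of 1), while Thbs4 stood at 3.18, with its mock value listed at 0. That made 4 of 6 members, all higher, beside 8.45% of genes. Fibroblast markers moved with them: their sum was 112.1 ligated and 63.25 mock, with none of 10 at 0. That was 31.2% and 11.5% of the level in the fibroblast-like cluster of the subset. A large part of both sums was Ly6a, at 29.1 and 30.8, above its 8.01 and 11.3 in that fibroblast-like cluster, so these percentages overstate the other markers. In cluster 3 of the subset Spp1 stood at 18.1%, Cilp at 24.8%, Thbs4 at 31.4% and Postn at 37.75% of their ligated fibroblast level. Subset cluster 1, led by lymphocyte genes and not compared, was alike in the ligated library, with Spp1 at 5.98, Cilp at 4.70 and fibroblast markers at 20.7% of their fibroblast level. The part of fibroblast RNA or of droplets with a pair of cells in these values was not tested, and doublets were not called here.

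The second fibroblast-like cluster of the subset, cluster 4, held only 17 ligated and 10 mock cells and was not compared, but its pattern of levels differed from that of cluster 0. It carried Pi16, Dpp4 and Dpt among its leading genes, all marks of adventitial fibroblasts. With 10 of 10 fibroblast markers detected and a ligated marker sum of 571.5, its Spp1 stood at 0.254 ligated, with the mock value listed at 0. The ligated value is 0.832% of the ligated level in cluster 0. Thbs4 stood at 0.0943 and was listed at 0. Cilp was listed at 0 in the ligated library and stood at 1.30 in the mock library.

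Other members were high in this cluster. Postn stood at 10.6 ligated and 2.87 mock, Thbs2 at 1.95 and 2.51, and Thbs3 at 1.85 and 1.29, each above its level in cluster 0 in both libraries. Sparc stood at 68.0 and 38.4, close to cluster 0, and Sparcl1 at 0.267 and 0.347, against 13.0 and 7.85 in cluster 0. The mock values rest on roughly 23.8 UMIs of Postn, 20.8 of Thbs2 and 10.65 of Thbs3.

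Averaged over each library's own cells, Spp1 stood at 3.32 ligated and 0.0785 mock (difference 4.26), Cilp at 2.27 and 0.158 (3.20) and Thbs4 at 1.08 and 0.0208 (3.29). Fibroblast-like cluster 3 held 87.2% of the ligated Spp1, 91.8% of the ligated Thbs4 and 88.4% of the ligated Cilp. In the mock library it held 61.6%, 56.2% and 94.1%. The rest of the mock Thbs4, 43.8%, lay in endothelial-like cluster 0, at 0.0162 or 77.9% of the library mean, beside a median of 4.30% for markers of other cell types, and all other mock clusters were listed at 0. The ligated library also had more fibroblasts among its recovered cells, so the libraries were compared again with the ligated clusters weighted by the mock cell mix. The differences were then 3.29 for Spp1, 2.24 for Cilp and 2.36 for Thbs4.

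For Postn the library-level value depended on the mix. It stood at 0.926 and 0.319 (1.29, past the rule), and at 0.35 with the mock cell mix. In the mock library 68.8% of Postn lay in mural-like and 17.3% in fibroblast-like cells, and in the ligated library 12.2% and 51.1%, with 28.4% in Schwann-like cells. Sparc stood at 18.2 and 20.9 (-0.20) and Sparcl1 at 7.55 and 5.85 (0.36), which became 0.99 with the mock cell mix. Endothelial-like cluster 0 held 71.4% of mock and 40.7% of ligated Sparc. Thbs1, Thbs2, Thbs3 and Tnc had library means under 0.2, with differences of -0.16, 0.65, 0.18 and 0.43.

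Other genes of the same kind did not move as a group in fibroblasts. Of 21 further matricellular genes, 12 reached the minimum level in cluster 3, 2 were past the rule and higher, 3 were past it and lower, and 7 did not pass, with a median difference of -0.16 beside -0.06 over all genes. Ccn4 stood at 1.06 ligated and 0.246 mock (1.75) and Ccn5 at 1.71 and 0.407 (1.83). Both are CCN family proteins linked to Wnt signalling. Each was listed under its current symbol in the ligated library and its older symbol (Wisp1, Wisp2) in the mock library, so each value pairs both symbols. Gene symbols thus differed between the libraries, at least for these genes. The annotation that each library was counted against is not given in the sources used here. A difference in annotation could not be told apart from ligation in any contrast of these libraries. Tnxb, a tenascin of loose connective tissue, stood at 0.744 and 3.44 (-2.07), Spon2 (spondin 2) at 0.698 and 3.23 (-2.06) and the proteoglycan gene Spock2 at 0.294 and 1.24 (-1.77). Ccn2, a frequent companion of fibrosis, stood at 3.34 and 2.57 (0.36).

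Of 18 receptor genes of these proteins, 9 reached the minimum level in cluster 3. Of them 1, Cd44, a receptor of osteopontin and hyaluronan, was past the rule at 0.305 and 0.728 (-1.03), beside 7.92% of all genes. Fibroblast-like cluster 0 of the subset, with largely the same cells, had 0 of 9 past the rule, beside 8.04% of genes. In macrophage-like cluster 5 Cd44 was the only one of 10 past the rule, at 0.368 and 1.35 (-1.63), beside 6.51%. In endothelial-like cluster 0, 2 of 5 were past it, beside 4.26% of genes: Cd36, a receptor of thrombospondin 1, at 2.37 and 5.45 (-1.17) and Stab1, a scavenger receptor that takes up SPARC, at 1.12 and 0.440 (1.18). In mural-like cluster 6 the integrin chain gene Itgb1 stood at 6.11 and 14.2 (-1.20), 1 of 8 beside 7.39%. In ductal-like cluster 7 all 3 receptor genes at the level were past the rule and higher, beside 24.9% of genes: Cd47, a receptor of thrombospondin 1, at 1.86 and 0.423 (1.91), Itgb1 at 1.48 and 0.381 (1.72) and the syndecan gene Sdc4 at 1.31 and 0.473 (1.30). In endothelial-like cluster 3 of the subset 2 of 8 were past it, Cd36 lower (2.52 and 6.12) and the endocytic receptor gene Lrp1 higher (2.54 and 0.892), beside 8.45%. With a pseudocount of 1 the receptor count became 0 in clusters 0, 3 and 5 and stayed at 1 in cluster 6.

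Of 10 genes often found with Spp1 in macrophages, 8 reached the minimum level in macrophage-like cluster 5. The lysosomal protease gene Ctsd was past the rule and higher (7.33 and 3.02, 1.25), and Fabp5 (0.544 and 2.87, -2.21) and Lpl (2.06 and 4.58, -1.11) were past it and lower, so 3 of 8 beside 6.51% of all genes. Trem2 stood at 2.17 and 2.05 and Gpnmb stayed below the minimum. Of 7 genes often found with Thbs4 in tendon, only Fmod (fibromodulin) reached the minimum level in cluster 3, at 0.653 and 0.0992 (1.92). Of 12 fibroblast activation genes 8 did, of which Col8a1 (4.05 and 0.362, 3.17) and the collagen crosslinking gene Lox (3.39 and 1.41, 1.21) were past the rule and higher and Fn1 (1.39 and 3.12, -1.11) was lower. Col1a1 stood at 34.2 and 24.5 (0.48). The calls in cluster 3 stand beside 7.92% of all genes. With a pseudocount of 1 the count there fell from 1 to 0 for the tendon list, from 3 to 1 for activation genes and from 5 to 2 for the further matricellular genes.

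The genes most like each member were sought by Pearson's r of log2(value + 0.1) over the 12 clusters of all cells with both libraries together, which share libraries and background RNA. For Spp1 they were the chemokine gene Cxcl14 (r = 0.99), Fbln1 (0.98) and the complement gene C3 (0.98). For Thbs4 they were Fbln1, Podn and Cdh11 (0.99 each), and for Cilp Mfap4, Lum and Ccn5 (0.99 each), the last listed under that symbol in the ligated library only. The 3 genes most like Spp1 over clusters did not share its difference between libraries. In cluster 3, Cxcl14 stood at 72.0 ligated and 77.7 mock (-0.11), Fbln1 at 5.13 and 4.57 (0.17) and C3 at 4.62 and 15.6 (-1.73), beside 4.61 for Spp1. Of the genes most like Cilp, whose difference was 2.55, Mfap4 stood at 5.69 and 2.97 (0.92), Lum at 19.85 and 26.4 (-0.41), and Ccn5, with its older symbol counted in, was past the rule (1.83).

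For Postn the 3 most alike were Rarres2 (0.97), Fxyd1 (0.96) and Casc4 (0.95), for Tnc Rftn2 and Fads2 (0.98 each) and Frmd6 (0.97), for Sparc Serpinh1 and Lama4 (0.98 each) and Lamc1 (0.97), and for Sparcl1 Rhoj and Amotl1 (0.98 each) and Lamb2 (0.96). Serpinh1 encodes a collagen chaperone, and Lama4, Lamc1 and Lamb2 encode laminin chains of basement membranes. For Thbs1 they were Sned1 (0.96), Colec12 (0.95) and Igf1 (0.94), for Thbs2 Gpr153 (0.99), Spon1 and Col6a3 (0.98 each), and for Thbs3 Cyp1b1, Col6a6 and Fbn2 (0.99 each). Among the members themselves r was 0.99 between Spp1 and Cilp, 0.98 between Spp1 and Thbs4, 0.93 between Postn and Tnc and 0.91 between Sparc and Sparcl1, and 0.26 between Spp1 and Sparc.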

How the data were processed

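The authors deposited 4 tables of cluster means, 2 with both libraries together and 2 split by condition. Cell Ranger 6.0.1, Seurat and mm10 are named in the submitters' processing notes, without their roles. The deposited values are read as linear mean UMIs per 10000 because every column sums to 10000. Since they are no counts, count models were not used. Of the gene names, 21 read as dates wherever conditions were split, and were restored from the joint table, which has the same order. All 10 members matched a table of mouse gene names.

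Cell numbers follow from the weight that joins split into joint values (largest residual 9.2e-08), as the smallest whole denominator within 2e-09 up to 20000, times a multiple where genes seen once required it (whole totals within 1e-06, 1093 to 1841 genes per cluster). This recovery and the size rule were tested on simulated data. A UMI equivalent is value times cells times median recovered total, divided by 10000. Genes listed in only 1 library (3150 ligated, 684 mock), among them genes under an older and a current symbol such as Wisp2 and Ccn5, were left out of the percentages over all genes. Markers of other cell types entered where both library means were at least 0.05, and their median share was subtracted in an alternative. Alternatives were pseudocounts of 0.01 and 1, a higher value of at least 2 or none, a size of 2, 100 cells, subtraction, centring, and other cell mixes.

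All members are named, with the 3 genes most like each (highest value at least 1) and list genes past the rule. Members and lists were chosen with earlier results of these data known. The clusters are the authors'. All values were computed with Python 3.11.15, numpy 2.4.6 and pandas 2.3.3.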

Additional observations from a re-analysis of the deposited data

Results flagged for a closer look

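Postn pointed in opposite directions in a pair of cell types: its difference was 1.85 in fibroblast-like and -0.88 in mural-like cells of all cells, and 1.98 and -1.12 in the subset. Sparc did the same, with 0.88 and -0.98 in all cells and 0.91 and -0.92 in the subset. With 1 library per condition the difference between cell types was not tested.

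In clusters left out of the comparison, members were flagged where they stood above every compared cluster and higher in the ligated than in the mock library. The direction was thus part of the choice and is no result. In Schwann-like cluster 9, with 271 ligated and 17 mock cells, this held for Postn (11.07) and Tnc (0.524). The mock value of Tnc there corresponds to roughly 1.51 UMIs. In the second fibroblast-like cluster of the subset, with 17 and 10 cells, it held for Thbs3 (1.85) and Postn (10.6). Thbs2 also stood above every compared cluster there, but was lower in the ligated (1.95) than in the mock library (2.51) and was not flagged.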

How the results depend on the processing

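Of the 12 member and cluster pairs past the size rule in all cells, 7 remained in number with a pseudocount of 1. Without a minimum level 31 pairs passed, and 6 at a size of at least 2. Shares over all genes were not recomputed under these settings. The 9 pairs of the subset became 5 with at least 100 cells in each library, because cluster 3 of the subset was then left out. Subtraction of the marker share turned 2 called differences, Spp1 in macrophage-like cluster 5 (-1.25) and Cilp in ductal-like cluster 7 (-0.0589). The library-level difference of Postn was 0.35 with the mock cell mix and 0.36 with equal cluster weights, and no longer past the rule. With a pseudocount of 1, 5 of the 12 called differences in all cells and 2 of the 9 in the subset were no longer past the rule. At that setting 25 of 44 counts over the gene lists moved by over 1.5 times, against 12 under subtraction. A pseudocount of 0.01 and centring on the median of all genes moved no single difference across the rule, among 27 at the minimum level in all cells and 17 in the subset. The 4 fibroblast differences stayed past it under all 4 settings tried on single differences. No paired analysis was possible because each group has 1 library. Leaving out a replicate was not possible for the same reason. Depth limits the mock values of Tnc, Thbs3 and Thbs4 and those of ductal-like cells.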
